A study of Mus musculus with 426 samples.

Results

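Chromosomes 8, 12 and 18 were described here as carriers of subclonal copy number differences among cells of a transplanted mouse pancreatic tumour. They were selected on their measured DNA ratios, which were already known to vary between these cells, so the DNA values below describe that choice and were not tested. The deposited DNA counts cover 5000 genomic bins of build mm9, of which 251 lie on chromosome 8, 224 on chromosome 12 and 178 on chromosome 18, 653 in all. For each cell with at least 50000 DNA counts, the mean count per bin of a chromosome was divided by the mean over chromosomes 1 to 19 of the same cell. Of 420 single-cell libraries, counted as 418 cells, 317 reached that depth. Of the cells nearest the limit, 3 just inside held 51310, 51499 and 53915 counts and had chromosome 18 ratios of 0.804, 0.978 and 1.17, and 3 just outside held 49037, 47202 and 46606 counts and had 0.963, 0.945 and 0.980.

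The tumours came from KPC1199-EGFP cells, a GFP-labelled mouse pancreatic cancer line. Per the labels, 50000 cells in matrigel were placed in the pancreas of male C57BL/6 mice aged 6 to 8 weeks and grew for 6 to 8 weeks, and the groups used here all come from 3 such mice. From the primary tumour cells were sorted as EpCAM+, as GFP+EpCAM+, as GFP+ and as CD45+, and GFP+ cells were sorted from metastases: peritoneal ones in each mouse, and those of spleen, kidney and liver in mice 2 and 3. GFP marks descendants of the injected line, EpCAM is a surface protein of epithelial cells and CD45 marks leukocytes of the host. RNA and DNA of a cell were amplified in 1 tube and told apart by whether a read fell in an exon.

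Tumour genomes gain and lose whole chromosomes and arms, and cells that inherit the same set of changes form a subclone. Mouse chromosomes carry the centromere at one end, so each is in effect a single long arm, read here from the centromere (proximal) to the other end (distal). Chromosome 18 carries Smad4, Smad2 and Apc, genes of the TGF-beta and WNT pathways, and Smad4 is often lost in human pancreatic cancer. Chromosome 8 carries the E-cadherin gene Cdh1, and chromosome 12 carries Nfkbia, Fos and Hif1a. A ratio is relative to the cell's own autosomes, so it gives no whole number of copies and no ploidy.

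Ratios were centred on the median of the 53 CD45+ cells, so that 1 stands for the CD45+ level. Cells were called aneuploid from the spread of the ratios of the 16 other autosomes. Chromosomes 8, 12 and 18 entered that call only through the mean over chromosomes 1 to 19 by which each ratio was divided. By that call 244 of 264 cells outside the CD45+ gate (92.4%) were aneuploid, against 5 of 53 CD45+ cells (9.43%). Kept cells held a median of 569437 DNA counts (51310 to 3140424), or 120 per bin. The 48 CD45+ cells not called aneuploid had an SD over cells of 0.065 on chromosome 8, 0.068 on chromosome 12 and 0.068 on chromosome 18. Among the 244 aneuploid cells the SD was 0.153, 0.157 and 0.239 on the same 3 chromosomes. Chromosome 18 ranked 2 of the 19 autosomes in this spread, behind chromosome 19 (0.248), whereas chromosome 12 ranked 8 and chromosome 8 ranked 10 of 19. Chromosomes 4, 9, 10, 13 and 14 varied least, with SDs of 0.080 to 0.098 and medians of 0.753 to 0.773.

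Chromosome 12 was low in most tumour cells, chromosome 18 was split between low and not low, and chromosome 8 as a whole was mostly near 1. The median of chromosome 12 over the 244 aneuploid cells was 0.753 (0.387 to 1.54). With low set under 0.8 and high over 1.2, 171 cells (70.1%, exact 95% interval 63.9 to 75.8) were low on chromosome 12 and 2 were high. Chromosome 18 had a median of 0.814 (0.405 to 1.62), and 108 cells (44.3%, 37.9 to 50.7) were low and 27 (11.1%, 7.42 to 15.7) high. Chromosome 8 had a median of 1.00 (0.603 to 1.72), with 34 low cells (13.9%, 9.85 to 18.9) and 13 high ones (5.33%, 2.87 to 8.94). These intervals cover counting of cells only. The limit of 0.8 ran through dense stretches, since 81 cells on chromosome 18 and 72 on chromosome 12 lay within 0.05 of it.

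The 3 chromosomes differed in where they were low. None of 26 aneuploid GFP+EpCAM+ cells was low on chromosome 18, which allows a share of up to 13.2% (exact 95% interval), and the medians were 1.163, 1.131 and 1.196 in mice 1, 2 and 3. Peritoneal GFP+ cells had medians of 0.779, 0.858 and 0.761, all under those of the GFP+EpCAM+ cells. GFP+ primary cells were split by mouse, at 1.154 in mouse 1 but 0.786 and 0.723 in mice 2 and 3. In liver the 4 aneuploid cells of mouse 2 ran from 0.987 to 1.19 and the 5 of mouse 3 from 0.631 to 0.806, so these did not overlap. In spleen the medians were 0.785 and 0.779 in mice 2 and 3. Chromosome 12 had a median under 0.8 in each group and mouse except EpCAM+ cells of mouse 3, at 0.868, and the peritoneum of mouse 1, at 1.04, against 0.733 and 0.712 in the peritoneum of mice 2 and 3. The peritoneum of mouse 1 was also the only group with a chromosome 8 median under 0.8, at 0.772 (0.678 to 1.07, 32 cells), against 1.07 (0.912 to 1.17, 24 cells) in GFP+ primary cells of mouse 1.

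**Figure D1:**
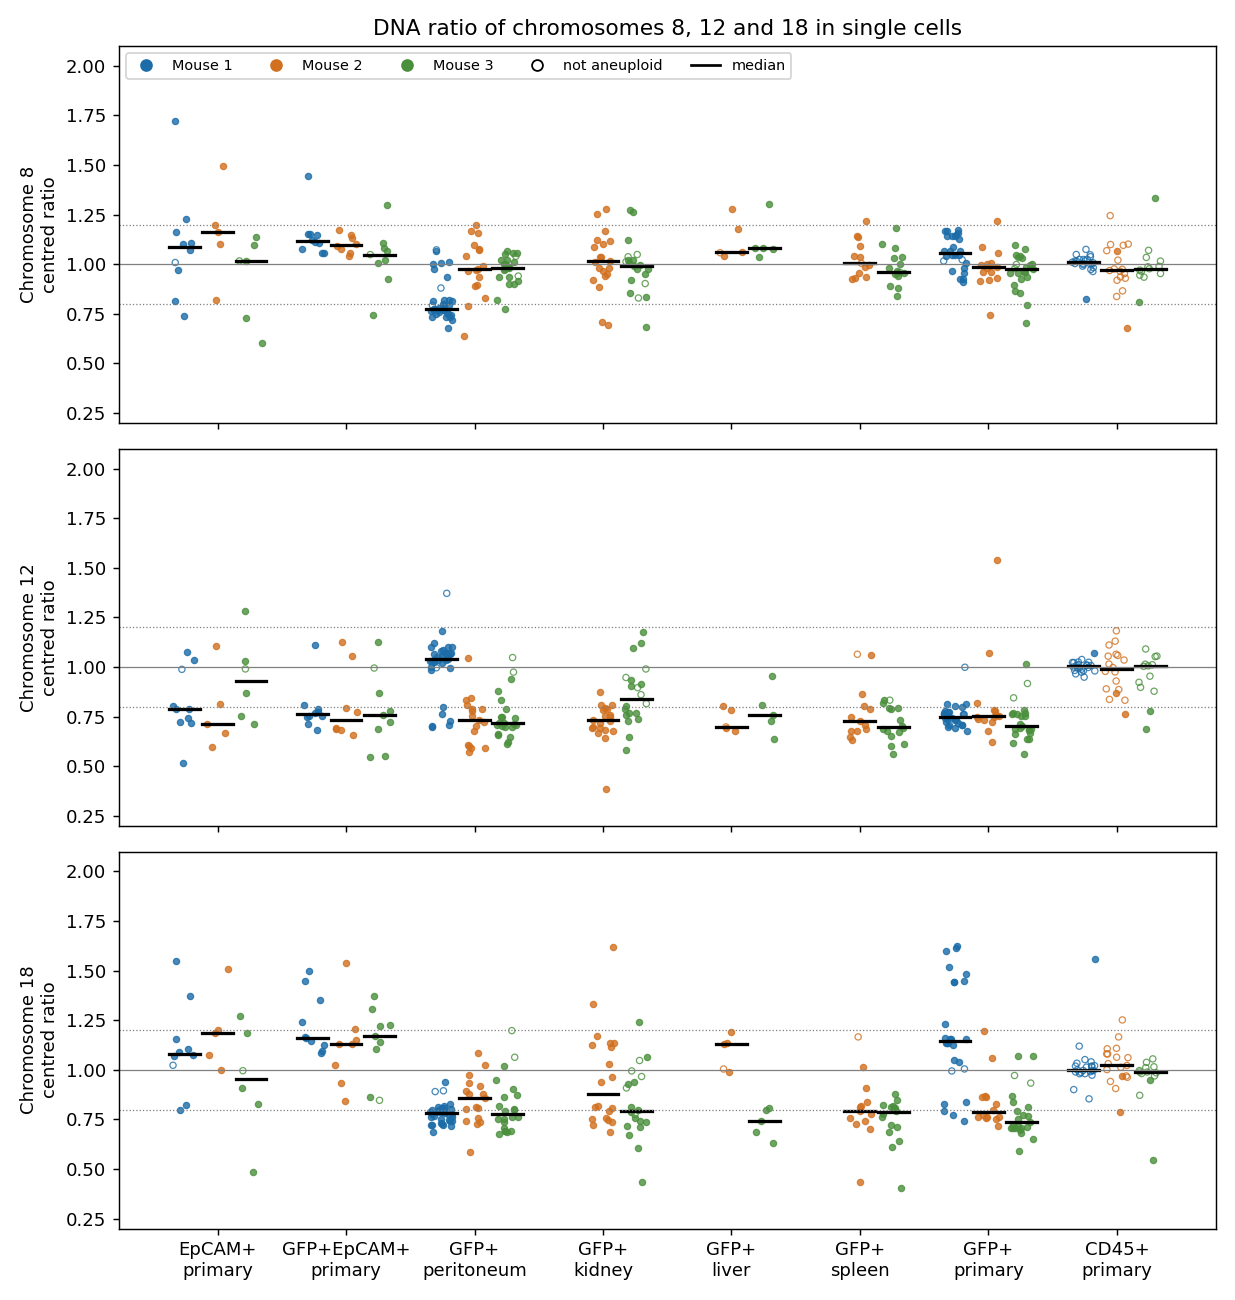
Centred DNA ratio of chromosomes 8, 12 and 18 (y axes, no unit) for each of the 317 cells, by sort and site (x axis) and coloured by mouse. Filled points are aneuploid cells, open points are cells not called aneuploid, black bars are medians over all cells of a group and mouse, and dotted lines mark 0.8 and 1.2. The peritoneum of mouse 1 stands near 0.77 on chromosome 8 and 1.04 on chromosome 12, and chromosome 18 falls into a low set and a set above 1.

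Whole-chromosome means hid partial changes on 2 of the 3 chromosomes. The best single split of chromosome 8 in the pooled GFP+ cells of mice 2 and 3 lay at position 88204479 (mm9), with 160 bins before it and 91 after it. The mean level after the split was 0.845, against 1.06 before it (143 cells). GFP+ primary cells gave the same bin in each of the 3 mice. The step was -0.11 in mouse 1, -0.19 in mouse 2 and -0.26 in mouse 3. CD45+ cells not called aneuploid split elsewhere, at 70338601, with a step of 0.04. In single cells the step could not be placed, since 13 of 244 tumour cells and 3 of 48 CD45+ cells passed the 95th percentile step of CD45+ cells. With bin values capped at 3 times the cell mean the chromosome 8 split lay at 89215861. The position also moved with the cells chosen. In cells of pattern B, described below, it lay at 93365609, 88721158 and 91050079 in mice 1, 2 and 3. Capped values gave 93365609, 91050079 and 91050079 in those cells.

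On chromosome 12 the peritoneum of mouse 1 split at 17568221, after 29 of 224 bins. Its level was 1.04 after the split, against 0.730 before it (32 cells), and the split took up 54.4% of the variance between bins. Only the proximal end was low there, whereas GFP+ primary cells of mouse 1 had medians of 0.761 proximal and 0.744 distal to the same point. The pooled GFP+ cells of mice 2 and 3 stepped up by 0.12 at 69820154, but CD45+ cells not called aneuploid also stepped up at 70825267, by 0.09. No split on chromosome 18 was common to all of the patterns described below and all mice, though some positions recurred. Position 34848943 was best in pattern A cells of mouse 1 and pattern D cells of mouse 2. Position 31910376 was best in pattern B cells of mouse 2 and pattern D cells of mouse 3. The best splits took up 0.959% to 12.3% of the variance. The largest share was in pattern C cells of mouse 1 (27 cells), and it was 16.4% with capped values. There the first 10 bins, the fewest allowed, had a level of 0.971, against 0.753 after them. The chromosome was still treated as 1 segment, which leaves that step out.

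**Figure D2:**
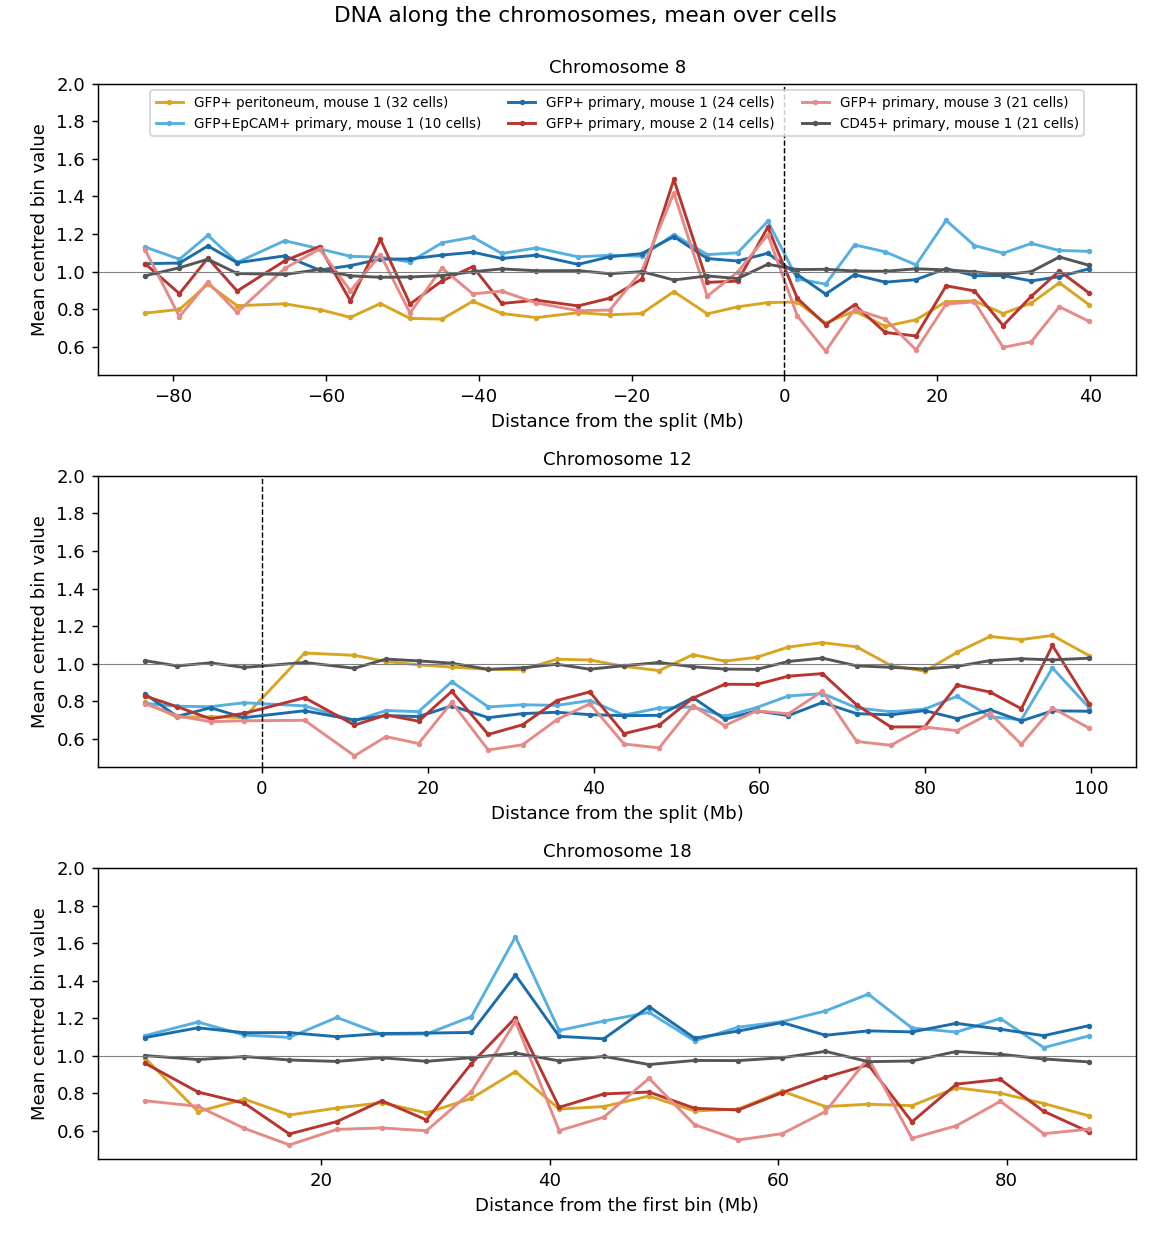
Mean centred bin value (y axis) along chromosomes 8, 12 and 18 in 6 groups of cells, against distance in Mb from the split (dashed line) or, for chromosome 18, from the first bin. Lines are means over the cells named in the legend, in windows of 8 bins with bin values capped at 3. The GFP+ primary cells of mice 2 and 3 drop beyond the chromosome 8 split but also dip on a stretch before it, and the peritoneum of mouse 1 is low only before the chromosome 12 split.

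The 2 splits gave 5 segments, namely proximal and distal chromosome 8, proximal and distal chromosome 12, and chromosome 18. A segment was called lower under 0.9, a limit set after the values were seen. Among the 244 aneuploid cells 22 patterns occurred, and the 4 most frequent are described. Pattern A, with only chromosome 12 lower, held 60 cells. Pattern B, with distal chromosome 8, chromosome 12 and chromosome 18 lower, held 84. Pattern C, with all of chromosome 8, proximal chromosome 12 and chromosome 18 lower, held 30. Pattern D, with chromosomes 12 and 18 lower and chromosome 8 kept, held 19. Pattern D is the one least well set apart from B, since its own best chromosome 8 split still stepped down, by 0.25 in mouse 2 and 0.16 in mouse 3.

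Patterns A and B both occurred in all 3 mice, while 27 of the 30 pattern C cells came from mouse 1 and pattern D was found in mice 2 and 3. Pattern A made up 20 of 26 aneuploid GFP+EpCAM+ cells and 10 of 19 EpCAM+ cells. Of GFP+ primary cells it made up 14 of 24 in mouse 1, but 1 of 14 in mouse 2 and 2 of 21 in mouse 3. Pattern B made up 5 of 24, 10 of 14 and 13 of 21 of the same cells. In spleen pattern B took 5 of 12 cells in mouse 2 and 12 of 15 in mouse 3, and no cell had pattern A. In liver the 4 cells of mouse 2 had pattern A and 3 of the 5 cells of mouse 3 had pattern B. In kidney of mouse 2 patterns A and B were equally frequent, at 7 of 20 cells each. Pattern C made up 25 of 32 peritoneal cells and 2 of 9 EpCAM+ cells of mouse 1, none of its 24 GFP+ primary cells, and 3 cells of mouse 3.

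**Figure D3:**
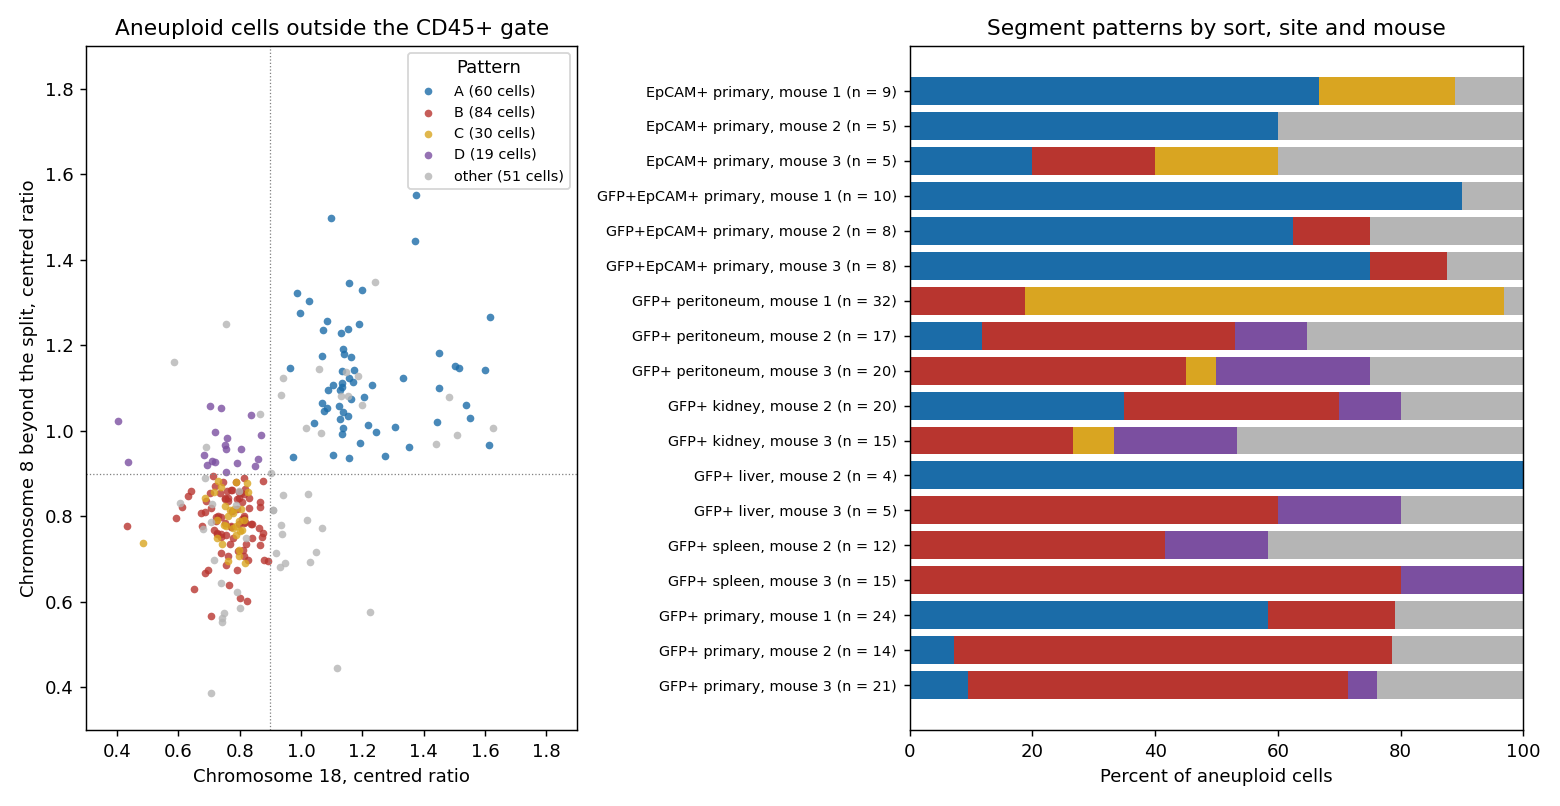
Left, centred ratio of distal chromosome 8 (y axis) against chromosome 18 (x axis) in 244 aneuploid cells outside the CD45+ gate, coloured by pattern, with dotted lines at 0.9. Right, percent of aneuploid cells in each pattern (x axis, same colours) by sort, site and mouse. The limits of 0.9 on these axes define patterns A (60 cells) and B (84 cells), so their separation follows from the definition. Pattern A fills most of the GFP+EpCAM+ bars.

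The patterns extended to chromosomes whose own ratios were not used in naming them. Chromosome 3 had medians of 1.52, 1.39 and 1.39 in pattern A cells of mice 1, 2 and 3, but 1.14 in pattern C cells of mouse 1. In pattern B cells it was 1.41, 1.17 and 1.196, so mouse 1 stood with pattern A there. Chromosome 2 was 1.32, 1.35 and 1.36 in pattern B cells, and 1.13, 1.07 and 1.19 in pattern A cells. Chromosome 16 was 1.28 in pattern C cells of mouse 1, and 0.888, 0.935 and 0.894 in pattern B cells. Chromosome 19 was 1.34, 1.482 and 1.13 in pattern B cells and 1.09, 1.14 and 1.16 in pattern A cells. Chromosomes 4, 9, 10, 13 and 14 had medians between 0.675 and 0.824 in each pattern and mouse with at least 6 cells.

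Bulk libraries, which the choice of chromosomes did not use, are given beside the medians of aneuploid cells of the same sort. The GFP+ peritoneal bulk sample of mouse 1 had 0.826 on chromosome 8, 0.763 on proximal and 1.06 on distal chromosome 12 and 0.794 on chromosome 18, beside cell medians of 0.772 on chromosome 8 and 0.779 on chromosome 18. The GFP+ primary bulk sample of mouse 1 had 1.07 on chromosome 8, 0.804 on chromosome 12 and 1.22 on chromosome 18, beside 1.07, 0.743 and 1.154 in GFP+ primary cells. Its title names GFP but its marker label names EpCAM, so its sort is uncertain. That of mouse 2 had 1.11 on proximal and 0.839 on distal chromosome 8 and 0.876 on chromosome 18, where its cells had a median of 0.786, a gap larger than the SD of CD45+ cells. The CD45+ bulk sample lay between 1.00 and 1.03 on the 3 whole chromosomes. The GFP-negative peritoneal sample lay between 0.954 and 1.00. The GFP-negative primary sample, with 18875 counts and so under the depth limit used for cells, had 1.08, 0.859 and 1.137 on chromosomes 8, 12 and 18. Each bulk sample is 1 library, so none of these values has a replicate.

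RNA was not used in choosing the chromosomes, and it was compared between cells with more and less DNA of each chromosome. Within each mouse the aneuploid cells were ranked by ratio, and those with the highest ratios (the high set) were set against as many with the lowest (the low set), 25, 26 and 29 cells a side in mice 1, 2 and 3, of 243 cells that passed the RNA filter. The share of a cell sum's RNA that came from the chromosome was higher in the high set in 3 of 3 mice for each chromosome. For chromosome 18 it was 3.92%, 3.16% and 3.20% in the high sets of mice 1, 2 and 3, against 2.22%, 2.46% and 2.58% in the low sets. For chromosome 12 it was 4.06%, 3.15% and 3.08%, against 2.64%, 2.68% and 2.42%. For chromosome 8 it was 4.35%, 4.75% and 4.37%, against 3.03%, 4.16% and 4.22%. On none of the 3 chromosomes did the sets overlap, though on chromosome 8 mouse 3 differed little. The mean log2 ratios of RNA share were 0.50 ± 0.28, 0.40 ± 0.20 and 0.25 ± 0.24 (SD, n = 3 mice) for chromosomes 18, 12 and 8, beside mean log2 ratios of DNA of 0.71, 0.53 and 0.46. Each comparison gave an exact two-sided sign-flip p of 0.25, the smallest that 3 mice allow. The direction did not hold in every other split of the cells. With cells high on chromosome 18 set against all others, its summed share was higher in 2 of 3 mice (log2 0.72, -0.14 and 0.23). Within GFP+ primary and peritoneal cells, that of chromosome 8 was higher in 2 of 3 (0.38, 0.0018 and -0.026, mean 0.12 ± 0.23 SD). In the remaining splits the summed share was higher in 3 of 3 mice.

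When each cell was weighted alike in place of summing counts, the share of chromosome 8 was higher in 2 of 3 mice, that of chromosome 12 in 2 of 3 and that of chromosome 18 in 3 of 3. The sets also differ in where cells came from: in mouse 1, 23 of the 25 cells lowest on chromosome 8 were peritoneal and 1 of the 25 highest. The part of sort and site in these differences was not tested. Some reads of DNA fall in exons and are then counted as RNA. The 1107 olfactory receptor genes, which encode odour receptors of the nose, held a median of 484 counts a cell, or 0.0375% of its RNA, and those counts followed DNA depth (Spearman rho 0.91 over 243 cells) and not RNA depth (-0.12). The part of such reads in the RNA of genes on these chromosomes was not tested.

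Gene by gene, the genes of a chromosome leaned with its DNA while hardly any single gene passed the test. The fitted log2 differences, high over low set, had a median of 0.51 over 516 genes of chromosome 18, against -0.10 over all 19977 genes tested. They had 0.45 over 637 genes of chromosome 12, against 0.06 over all 20067, and 0.27 over 962 genes of chromosome 8, against -0.01 over all 20129. Without mouse 1 the median of chromosome 8 exceeded that of all genes by 0.01. For chromosomes 12 and 18 that excess stayed between 0.39 and 0.43 and between 0.48 and 0.76 when any mouse was left out. Among genes of at least 100 CPM the fitted excess was 0.63 on chromosome 18 (59 genes), 0.29 on chromosome 12 (58 genes) and 0.29 on chromosome 8 (94 genes). Per mouse the excess was taken from log2(CPM + 1) differences of the sums, which is another measure. For these genes it was 0.82, 0.63 and 0.42 on chromosome 18 in mice 1, 2 and 3. It was 0.80, 0.01 and 0.22 on chromosome 12 and 0.55, 0.42 and 0.39 on chromosome 8. Over all genes tested the per-mouse measure gave 0.42, 0.29 and 0.24 on chromosome 18. It gave 0.31, 0.12 and 0.20 on chromosome 12 and 0.32, 0.09 and 0.01 on chromosome 8.

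Genes whose 3 high-set sums all lay above their 3 low-set sums were common on each chromosome. On chromosome 18 they numbered 65 of 516, with 9 the other way, where over all genes 5.72% were higher and 5.42% lower. On chromosome 12 there were 51 of 637 with 5 the other way, where over all genes 4.34% were higher and 3.36% lower. On chromosome 8 there were 71 of 962 with 12 the other way, where over all genes 3.07% were higher and 3.30% lower.

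Across single cells of all sorts and sites the lean was stronger when each gene counted alike than in the share of RNA. The mean log2(CPM + 1) of a chromosome's genes minus that of all autosomal genes had a Pearson r with the cell's log2 DNA ratio of 0.82, 0.76 and 0.75 on chromosome 18 in mice 1, 2 and 3 (75, 79 and 89 cells). It was 0.81, 0.70 and 0.64 on chromosome 12 and 0.83, 0.59 and 0.38 on chromosome 8. Spearman's rho was 0.83, 0.72 and 0.58 on chromosome 18, 0.78, 0.31 and 0.51 on chromosome 12, and 0.84, 0.49 and 0.32 on chromosome 8. With the log2 share of RNA counts in place of that mean, r was lower, at 0.66, 0.31 and 0.47 on chromosome 18, 0.56, 0.20 and 0.14 on chromosome 12, and 0.61, 0.28 and 0.13 on chromosome 8. The mean log2(CPM + 1) measure, limited to genes of at least 100 CPM, gave r of 0.82, 0.69 and 0.48 on chromosome 18. It gave 0.63, 0.54 and 0.38 on chromosome 12, and 0.70, 0.47 and 0.19 on chromosome 8. Within GFP+ primary cells alone (24, 13 and 21 cells) the mean over genes gave r of 0.73, 0.62 and 0.52 on chromosome 18. It gave 0.25, 0.90 and 0.67 on chromosome 12 and 0.72, 0.12 and 0.50 on chromosome 8. The share of RNA in these cells gave 0.59, -0.02 and 0.06 on chromosome 18, 0.26, -0.02 and 0.47 on chromosome 12, and 0.37, -0.41 and 0.43 on chromosome 8. RNA and DNA values of a cell come from 1 library and share its depth, and cells of a mouse are not replicates, so these are descriptions.

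**Figure D4:**
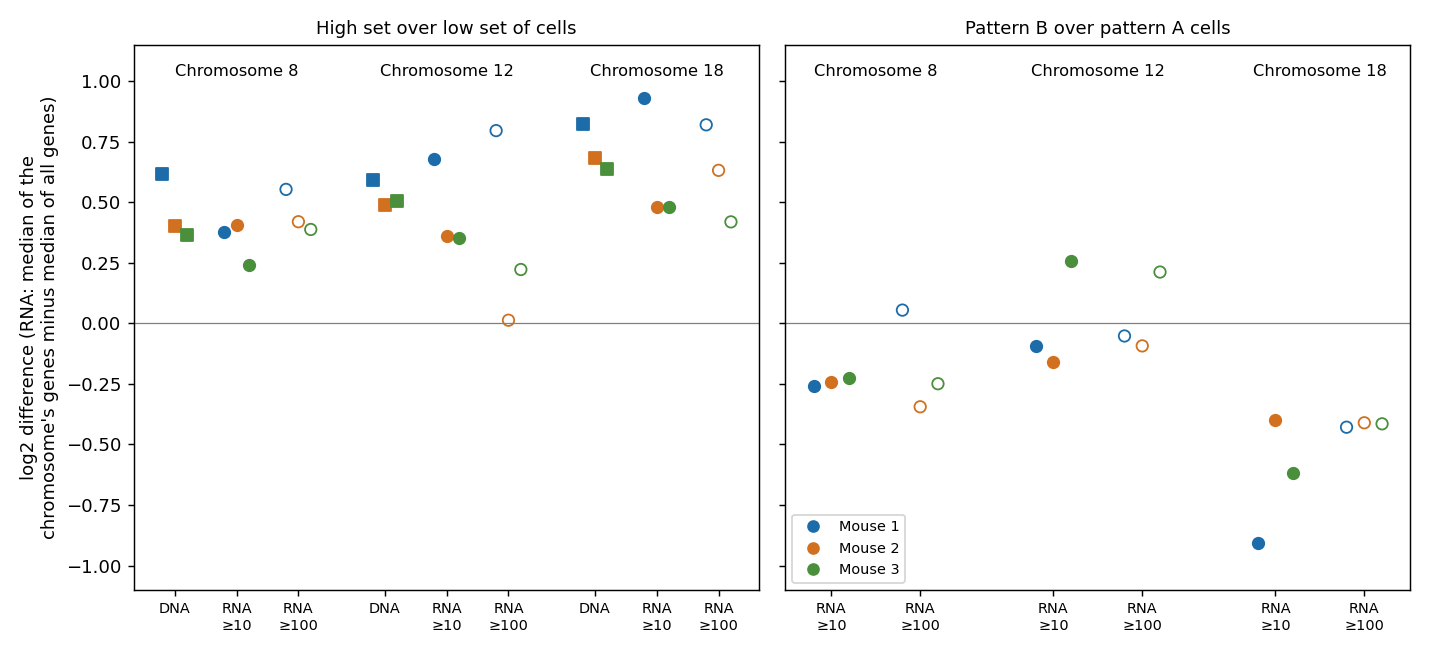
Log2 differences per mouse (y axis), high over low set of cells (left) and pattern B over pattern A cells (right). Squares (left panel only) are DNA, filled circles the median of the chromosome's genes minus that of all genes among genes of at least 10 CPM, and open circles the same for genes of at least 100 CPM. On chromosome 18 all 3 mice lie above 0 in the left panel and below 0 in the right one.

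For chromosome 18, edgeR's quasi-likelihood test called none of its 516 genes between the sets at an adjusted p under 0.05, and 2 genes of other chromosomes higher (0.0100% of all genes higher, 0.000% lower). At an unadjusted p under 0.05, 50 of the 516 chromosome 18 genes passed, and 1590 of all 19977. DESeq2 called 34 of 441 chromosome 18 genes, and 872 of all 16676 it tested. With the mouse as a block edgeR called 6 genes, 1 of them on chromosome 18. It called 46 genes without mouse 1, 0 without mouse 2 and 47 without mouse 3, of which 3, 0 and 2 lie on chromosome 18. The 2 were Cdh13, a cadherin gene of chromosome 8 (log2 7.97, adjusted p = 0.0340), and Muc1, an epithelial mucin gene of chromosome 3 (log2 7.99, adjusted p = 0.0363). Muc1 had 590, 5834 and 2996 CPM in the high sets of mice 1, 2 and 3, against 21.5, 2.80 and 9.59 CPM in the low sets. Neither passed without mouse 2 (adjusted p = 0.377 and 0.281), and Muc1 missed under the block (adjusted p = 0.0851).

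Of 47 genes listed for chromosome 18 for their known roles, 45 lie on it, none was called, and their median log2 difference was 0.71, with 36 above 0. All genes of at least 10 CPM, on any chromosome, had a median of 0.24 between these sets. The most abundant were Egr1, an immediate early transcription factor, Atp5a1, a subunit of ATP synthase, Hspa9, a mitochondrial chaperone, Txnl4a, a splicing factor, and Ctnna1, which ties cadherins to actin. Atp5a1 had 1271, 1061 and 1127 CPM in the high sets of mice 1, 2 and 3, against 546, 822 and 920 CPM in the low sets, and the groups did not overlap. Hspa9 had 723, 557 and 675 CPM, against 160, 423 and 688 CPM. Txnl4a had 963, 461 and 520 CPM, against 181, 528 and 303 CPM, and Ctnna1 had 718, 338 and 594 CPM, against 188, 403 and 235 CPM, so both groups overlapped. Egr1 had 3740, 8427 and 9091 CPM, against 539, 8136 and 6557 CPM, and differed mainly in mouse 1. Smad4, named outside the rule for its role in this cancer, had 7.63, 55.5 and 26.1 CPM, against 5.54, 60.6 and 72.5 CPM.

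For chromosome 8, edgeR called 2 of 962 genes higher and none lower, where 0.0696% of all genes were higher and 0.0248% lower. Cdh13 had 746, 499 and 177 CPM in the high sets of mice 1, 2 and 3, against 3.17, 0.720 and 22.4 CPM in the low sets (log2 5.77 ± 1.23 SE, adjusted p = 0.00514). The groups did not overlap. The other, the unnamed transcript 9330133O14Rik, had 493 CPM in the high set of mouse 1 and 0.426 to 4.66 CPM in the other 5 sums, so it rests on 1 mouse. Without any 1 mouse, no chromosome 8 gene was called. With the mouse as a block, 1 was called, Cdh13, where 0.0397% of all genes were higher and 0.0149% lower.

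All 40 listed genes of chromosome 8 were tested, none was called, and their median was -0.51, with 15 above 0. All genes of at least 10 CPM, on any chromosome, had a median of -0.32 between these sets. The most abundant were Junb, an immediate early transcription factor, the metallothionein Mt1, the chaperones Calr and Dnajb1, and Prdx2, a peroxidase. Junb had 165, 1615 and 735 CPM in the high sets, against 7.81, 2372 and 1812 CPM in the low sets. Mt1 had 985, 798 and 476 CPM, against 409, 1615 and 1179 CPM. Calr had 305, 1345 and 813 CPM, against 77.3, 1289 and 766 CPM. Dnajb1 had 725, 282 and 264 CPM, against 163, 460 and 213 CPM, and Prdx2 had 209, 212 and 227 CPM, against 123, 230 and 195 CPM. In all 5 the groups overlapped.

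For chromosome 12, edgeR called 0 of 20067 genes in either direction (0.000%). At an unadjusted p under 0.05, 1054 genes passed, 42 of them among the 637 on chromosome 12, and DESeq2 called 176, of which 10 were on chromosome 12. Of 44 listed genes 43 lie on the chromosome and 42 were tested, with a median of -0.14 and 18 above 0. All genes of at least 10 CPM, on any chromosome, had a median of -0.41 between these sets. Among the most abundant were Fos, an immediate early transcription factor, Nfkbia, the inhibitor of NF-kappaB, Hsp90aa1, a chaperone, and Id2, an inhibitor of DNA binding. Fos had 1190, 2843 and 4388 CPM in the high sets, against 1979, 2899 and 1311 CPM in the low sets. Nfkbia had 204, 1888 and 983 CPM, against 524, 3014 and 1732 CPM, lower in each mouse although the groups overlapped. Hsp90aa1 had 350.1, 523 and 597 CPM, against 318, 975 and 423 CPM, and Id2 had 646, 758 and 306 CPM, against 670.4, 297 and 49.6 CPM.

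Patterns A and B were then compared, a comparison added after the DNA values had been seen. Cells of pattern B held more RNA of fibroblast marker genes and less of epithelial ones than cells of pattern A. The summed level of 8 epithelial genes was 4074, 439 and 951 CPM in pattern B cells of mice 1, 2 and 3 (11, 30 and 43 cells), against 12486, 24873 and 21819 CPM in pattern A cells (29, 21 and 9 cells). That of 8 fibroblast genes was 2843, 11939 and 6556 CPM, against 13.7, 135 and 82.2 CPM. Neither pair of groups overlapped. Cell by cell, epithelial RNA exceeded fibroblast RNA in 11 of 84 pattern B cells (13.1%) and in 54 of 59 pattern A cells (91.5%). By mouse these were 5 of 11, 2 of 30 and 4 of 43 pattern B cells, and 28 of 29, 18 of 21 and 8 of 9 pattern A cells.

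Within single sorts and sites the difference was clear in 1 and mixed or resting on few cells in others. In kidney of mouse 2, where both patterns came from 1 GFP+ sort, epithelial RNA exceeded fibroblast RNA in 1 of 7 pattern B cells and in 7 of 7 pattern A cells. In GFP+ primary cells of mouse 1 it did in 3 of 5 pattern B cells and in 13 of 14 pattern A cells. In GFP+ primary cells of mouse 3 it did in 1 of 13 pattern B cells and in 1 of 2 pattern A cells. The 2 pattern A cells of the peritoneum of mouse 2 went the other way, with a median of 1124 CPM epithelial and 5526 CPM fibroblast RNA. Pattern D was like B, with epithelial RNA higher in 4 of 19 cells, and pattern C like A, with 25 of 30. Pattern C cells of the peritoneum of mouse 1 had a median of 8662 CPM epithelial and 26.98 CPM fibroblast RNA (25 cells), whereas the 6 pattern B cells of the same sort had 125 and 240.3 CPM. Chromosome 18 was lower in both C and D. Leukocyte genes summed to 9.64 to 112 CPM in pattern B and 61.8 to 180 CPM in pattern A, against 7256 to 9171 CPM in CD45+ cells not called aneuploid.

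**Figure D5:**
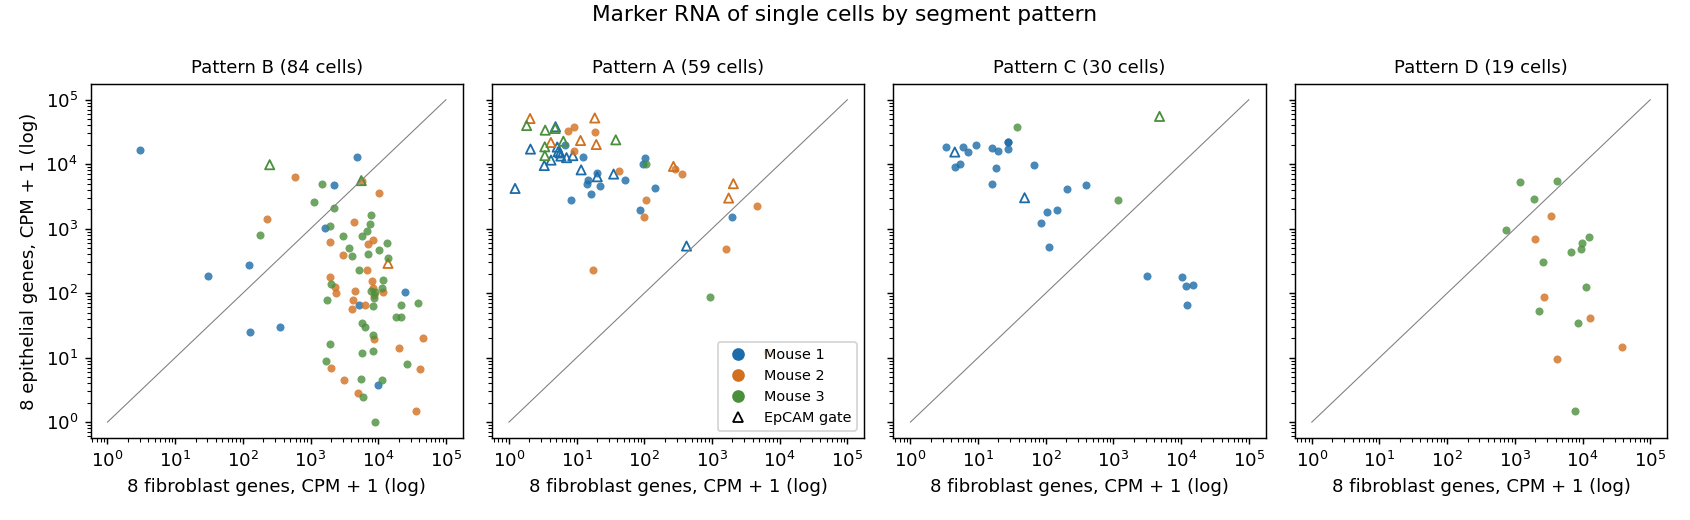
Summed RNA of 8 epithelial genes (y axis) against that of 8 fibroblast genes (x axis), both CPM + 1 on log axes, for single cells of patterns B, A, C and D, coloured by mouse. Triangles are cells of an EpCAM gate, and the grey line marks equal levels. Most of the 84 pattern B cells lie below the line and most of the 59 pattern A cells above it.

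Over all 19714 genes tested, edgeR called 17 higher in pattern B (0.0862%) and 70 lower (0.355%), and with the mouse as a block 49 (0.249%) and 151 (0.766%). Without mouse 3 it called 27 in all. The epithelial genes Epcam, Krt8, Krt18, Krt19 and Muc1 were called lower, 5 of the list of 8, and Col1a1, Col1a2, Dcn and Lum higher, 4 of 8. The genes not called leaned the same way. Krt7, Lcn2 and Cdh1 had log2 differences of -5.30, -6.39 and -2.67. Col3a1, Pdgfra, Pdgfrb and Postn had 5.11, 5.64, 6.64 and 8.49. Epcam had 9.74, 2.52 and 31.9 CPM in pattern B cells of mice 1, 2 and 3, against 787, 671 and 560.0 CPM in pattern A cells (log2 -5.54 ± 1.05 SE, adjusted p = 0.0347, and 0.0857 without mouse 1 and 0.1005 without mouse 2). The collagen-binding proteoglycan gene Dcn had 738, 3673 and 1331 CPM, against 4.08, 11.7 and 7.03 CPM (log2 8.00 ± 0.93 SE, adjusted p = 0.00350). Cdh1, on chromosome 8, had 294, 1.18 and 36.3 CPM, against 238, 162 and 1480 CPM, and was not called (adjusted p = 0.451). Under the block 7 of 8 epithelial genes were called lower and 6 of 8 fibroblast genes higher.

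On the chromosomes themselves, the median log2 difference of pattern B over A was -0.60 for 508 genes of chromosome 18 and -0.28 for 950 genes of chromosome 8, whose DNA is lower there in whole or in part. It was 0.03 for 621 genes of chromosome 12, which is lower in both patterns, and 0.00 for all genes. Per mouse, log2(CPM + 1) differences gave smaller excesses over all genes. They were -0.43, -0.29 and -0.20 on chromosome 18 and -0.15, -0.12 and -0.06 on chromosome 8 in mice 1, 2 and 3. Among genes of at least 100 CPM they were -0.43, -0.41 and -0.42 on chromosome 18. On chromosome 8 they were 0.05, -0.34 and -0.25, so mouse 1 did not share the direction. Genes without overlap between the 3 sums of each pattern numbered 15 higher and 57 lower on chromosome 18, 52 and 74 on chromosome 8 and 44 and 32 on chromosome 12, where over all genes 7.59% were higher and 5.85% lower. The called genes of the 3 chromosomes, 5 on chromosome 18, 3 on chromosome 8 and 2 on chromosome 12, were all lower in pattern B. Over all genes 0.355% were lower and 0.0862% higher, so the 3 of 950 genes on chromosome 8 and 2 of 621 on chromosome 12 are near that share and nothing is read from their direction.

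On chromosome 18 these were Cd74, the invariant chain of MHC class II, Onecut2, a transcription factor, Hbegf, a ligand of the EGF receptor, Lims2, an adhesion adaptor, and Iigp1, an interferon-induced GTPase. Cd74 had 1.34, 7.40 and 10.4 CPM in pattern B cells of mice 1, 2 and 3, against 1158, 494 and 1419 CPM in pattern A cells (log2 -7.34 ± 1.05 SE, adjusted p = 0.0104). Onecut2 had 31.1, 12.95 and 99.9997 CPM, against 1420.2, 563 and 2206 CPM (adjusted p = 0.0339). Hbegf had 24.3, 81.4 and 204 CPM, against 1231, 1175 and 2439 CPM (adjusted p = 0.0457). Lims2 had 0.428, 0.107 and 0.189 CPM, against 162, 1.36 and 359 CPM, and Iigp1 had 1.71, 0.809 and 4.20 CPM, against 336, 3.17 and 1987 CPM, both low in mouse 2 in either pattern.

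On chromosome 8 they were Cdh13, the chemokine gene Cx3cl1 and the SH2 adaptor gene Sh2d4a. Cdh13 had 4.0005, 1.18 and 17.96 CPM in pattern B cells, against 687, 640.1 and 822 CPM in pattern A cells (log2 -6.57 ± 1.13 SE, adjusted p = 0.0309). Cx3cl1 had 0.733, 0.205 and 1.023 CPM, against 21.1, 91.9 and 714 CPM, and Sh2d4a had 2.69, 0.365 and 0.901 CPM, against 83.8, 91.2 and 550.4 CPM. On chromosome 12, at a like DNA level in both patterns, the glutathione peroxidase gene Gpx2 had 0.244, 0.747 and 0.879 CPM, against 71.1, 243 and 78.99 CPM. Degs2, a sphingolipid enzyme gene, had 1.28, 2.12 and 0.845 CPM, against 377, 139 and 261 CPM. Leaving out a mouse ended most of these calls. Cd74 passed in each case (adjusted p at most 0.0301), as did Dcn. Without mouse 3, whose pattern A sum holds 9 cells, Cx3cl1, Sh2d4a, Gpx2, Degs2, Lims2, Iigp1 and Hbegf missed the threshold (adjusted p = 0.0942 to 0.458). Without mouse 1, Cdh13, Lims2, Iigp1, Onecut2 and Hbegf missed it (0.0607 to 0.0942), and without mouse 2, Sh2d4a and Gpx2 did (0.0552 and 0.424).

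Pattern moved with the EpCAM gate: 30 of the 59 pattern A cells came from an EpCAM+ or GFP+EpCAM+ sort and 3 of the 84 pattern B cells. Within the GFP+ gate alone, which leaves 11, 29 and 41 pattern B cells and 14, 13 and 2 pattern A cells in mice 1, 2 and 3, 4 genes were called higher and 14 lower, Cdh13, Lims2, Onecut2 and Dcn among them. Cd74 then had a log2 difference of -6.86 (adjusted p = 0.0549). None of the 8 epithelial genes passed, with log2 differences between -6.54 (Lcn2) and -0.95 (Cdh1), and Epcam at -6.20 (adjusted p = 0.174), so the test does not show that they did not differ. The median excess of chromosome 8 genes was -0.10 there. Because DNA pattern, marker RNA and sort go together in these cells, their parts in a gene's RNA level cannot be told apart.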

How the data were processed

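RNA and DNA of single cells and of 6 bulk samples came from 1 tube each, per the labels' protocols, with 15 PCR cycles for cDNA and 76 bp reads. The submitters' processing notes name STAR, kallisto, Bowtie 1.0 and mm9, without roles. The deposited DNA file holds raw counts per bin. The deposited RNA file holds expected counts per gene, of which 97.36% were whole, and these were rounded. The chromosomes, gene lists and comparisons were chosen with earlier results of these data known. The limits of 0.9 and patterns A to D were set after the ratios were seen.

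Of 2941 pairs of libraries of one group and mouse, 2 peritoneal pairs of mouse 1 differed by less than sampling noise in DNA (chi-square per degree of freedom 0.738 and 0.853) and were counted as 1 cell each. The replicate is the mouse. RNA counts were summed over cells per side and mouse (cells with at least 500 genes and 10000 RNA counts) and tested with edgeR 4.0.16 (quasi-likelihood, TMM, Benjamini-Hochberg adjusted p under 0.05), with DESeq2 1.42.0, limma 3.58.1 and other settings as alternatives. Shares were compared by exact sign-flip tests. Both sides of a comparison come from the same animals. Deviations of the 2 sides in a mouse correlated with r of 0.07 to 0.31 for chromosome 8, 0.14 to 0.35 for chromosome 12, 0.08 to 0.35 for chromosome 18 and 0.03 to 0.20 for patterns. Named genes were those called on the chromosomes, called genes of other chromosomes where at most 5 were called, the 5 most abundant of each list, and marker genes; 1 listed gene of chromosome 12 is not reported here. Smad4 was chosen after its values were seen. Gene chromosomes came from RefSeq (GRCm38.p6) by symbol, for 99.5% of 24424 genes. That build differs from mm9, so genes were not placed on either side of a split. Intervals cover counting error only. Statistics were tested on simulated data.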

Additional observations from a re-analysis of the deposited data

How the results depend on the processing

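Depth limits single-cell splits, and 3 mice limit each RNA test. The low and high classes moved with their limits. With both limits moved outward by 0.05, 48.8% of cells were low on chromosome 12 and 24.6% on chromosome 18. With both moved inward by 0.05, 11.9% were high on chromosome 8, 1.64% high on chromosome 12, 57.8% low on chromosome 18, and 15.98% low on chromosome 12 alone. Medians over bins gave a chromosome 8 median of 1.03 and a chromosome 12 SD of 0.170, and a denominator of the 16 other autosomes gave a chromosome 8 median of 0.951. The chromosome 8 step was -0.20 with capped values and -0.26 without centring.

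Counts of called genes moved most. DESeq2 called 294, 176 and 872 genes between high and low sets of chromosomes 8, 12 and 18 (18, 10 and 34 on the chromosome) and 1715 between patterns. No filter gave 33 on chromosome 8, and no TMM gave 6 on chromosome 18 and 181 between patterns. Splits at the median ratio called 0 for chromosomes 8 and 18 and gave an excess (median log2 difference of the chromosome's genes minus that of all genes) of 0.27 for chromosome 12. The high state called 0 for chromosome 8 and 8 for chromosome 18, with an excess of 0.78, and could not be run for chromosome 12, where a mouse had too few cells. GFP+ primary and peritoneal cells gave 12, 1 and 1 calls. Limma with cells weighted alike gave 2 calls (1 on the chromosome) for chromosome 8 and 15 (2) for chromosome 18, and excesses of 0.23 and 0.29 for chromosomes 12 and 18. Genes of at least 100 CPM gave an excess of 0.29 for chromosome 12 and, between patterns, -0.40, -0.074 and -0.42 for chromosomes 8, 12 and 18. The GFP+ gate gave 18 calls between patterns and excesses of -0.10 and 0.12 for chromosomes 8 and 12. Cdh13 reversed to -3.45 in the high-state split of chromosome 8, and 9330133O14Rik to -0.82 in GFP+ primary and peritoneal cells. The causes were not tested.

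With the mouse as a replicate block, edgeR called 11 genes for chromosome 8 (1 on it), 0 for chromosome 12, 6 for chromosome 18 (1 on it) and 200 between patterns, the chromosome 8 excess between patterns was -0.33, and that between chromosome 8 sets among genes of at least 100 CPM was 0.46. Leaving out a mouse gave a chromosome 12 SD of 0.144 to 0.164, a chromosome 18 median of 0.809 to 0.866, 4.0% to 8.07% of cells high on chromosome 8 and a chromosome 8 step of -0.24 to -0.19. It gave 0 to 2 calls for chromosome 8 (0 on it) with an excess of 0.0053 to 0.46, 0 to 2 calls for chromosome 12, and 0 to 47 for chromosome 18 (0 to 3 on it) with 0.48 to 0.76. Between patterns it gave 27 to 74 calls and excesses of -0.28 to -0.23, -0.059 to 0.086 and -0.73 to -0.56 for chromosomes 8, 12 and 18.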
